A study of Homo sapiens with 12 samples.

Results

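The genes described here encode the protein-making, protein-importing and respiratory machinery of mitochondria. They were chosen by symbol alone: MRPL, MRPS, TIMM or TOMM followed by a digit, COX followed by a digit, or a symbol opening with NDUF, UQCR or ATP5, without a hyphen. Of the 5308 genes that the authors listed as changed in at least 1 of 3 comparisons, 48 met this rule, 31 under lactic acidosis, 38 in lactosis and 16 in acidosis. The cells were KKU-213A, a human cholangiocarcinoma line, and all groups were this single line. Control cells grew in low-glucose DMEM with 10% serum. Lactic acidosis medium (LLA) combined L-lactate with HEPES buffer, each at 25 mM, at pH 6.7 and was introduced stepwise from 25%, lactosis medium held 25 mM lactate at pH 7.4, and acidosis medium held 25 mM HEPES at pH 6.5. Treated cells had passed at least 5 passages in their medium. HEPES is stated only for the acid media and passages only for treated cells, so acid cannot be told apart from its buffer, nor a treatment from time in its medium. Each group had 3 polyadenylated RNA libraries, and the same 3 control libraries served every comparison. Nothing given here tells whether these libraries stem from separate cultures, so p-values measure only the spread between these libraries, which may be technical.

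Mitochondria keep a small genome that encodes a few respiratory chain subunits, and a dedicated ribosome inside the organelle translates them. All other subunits, and every protein of that ribosome, are encoded in the nucleus, made in the cytosol and carried in through the TOM complex of the outer membrane and the TIM complexes of the inner membrane. Imported and locally made subunits are then joined by assembly factors into the complexes that pump protons and into the ATP synthase that uses the proton gradient. Cholangiocarcinoma is a cancer of the bile duct epithelium.

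The listed members were spread unevenly over this machinery. The GENCODE annotation holds 205 protein-coding genes that meet the rule, and 47 of them (22.9%) were listed in at least 1 table, beside 25.4% of all 19936 protein-coding genes. The 48th member, MRPS31P5, is a pseudogene. By symbol class, TOMM genes (outer membrane import) had 6 of 10 listed and TIMM genes (inner membrane import) 6 of 15. MRPS genes (small mitoribosomal subunit) had 12 of 29 and MRPL genes (large subunit) 12 of 49. The TOMM and TIMM classes include chaperones that work outside the membranes. Genes of the NDUF class, which belong to complex I, had 5 of 47 listed, COX genes 1 of 26, UQCR genes 1 of 9 and ATP5 genes 4 of 20. A gene that was not listed is not shown to be unchanged, and genes outside the tables were not analysed here. None of the 13 respiratory chain subunits encoded in mitochondrial DNA was listed in any table.

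Sequences upstream of 4 members are shown because the nuclear factors NRF1 and GABP, an ETS-family factor, are textbook regulators of genes of this kind, and MRPL17, MRPL20, MRPL45 and TOMM40L include members listed higher and lower. The sequences are from the RefSeq promoter table (GRCh38.p14) and end just before the first annotated base of each gene. MRPL17 lies at chr11:6683402-6683501 on the minus strand, MRPL20 at chr1:1407314-1407413 on the minus strand, MRPL45 at chr17:38296923-38297022 on the plus strand and TOMM40L at chr1:161225839-161225938 on the plus strand. Capitals mark an NRF1 motif (GCNTGCGC on either strand) or an ETS motif (CCGGAAGT), and the TOMM40L stretch holds neither.
MRPL17: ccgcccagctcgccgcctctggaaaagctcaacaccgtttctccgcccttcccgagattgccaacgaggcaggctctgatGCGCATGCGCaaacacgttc
MRPL20: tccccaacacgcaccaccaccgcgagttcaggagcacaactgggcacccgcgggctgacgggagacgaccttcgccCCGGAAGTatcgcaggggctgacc
MRPL45: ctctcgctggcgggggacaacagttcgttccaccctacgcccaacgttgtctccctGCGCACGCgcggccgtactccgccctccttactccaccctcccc
TOMM40L: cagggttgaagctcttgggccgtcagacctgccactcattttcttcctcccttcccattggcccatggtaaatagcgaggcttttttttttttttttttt

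Promoter windows of 300 bases, from 250 before to 50 after the start, were available for 41 of the 48 members, and motifs were sought on both strands. Of these 41 members 33 were listed higher and 8 lower, so most windows with any motif would belong to higher members. The ETS motif CCGGAAGT was in 9 of the 41 windows (22.0%), compared with 7.35% of windows of all listed genes and 4.14% of all windows in the table. These 9 were ATP5A1, ATP5J, MRPL16, MRPL18, MRPL20, MRPS34, TIMM10B, TOMM20 and TOMM6, of which 6 were listed higher and 3 lower. The NRF1 core GCATGCGC was in 4 windows (9.8%; 4.6% of listed and 3.05% of all), those of MRPL17, NDUFAF4, NDUFAF5 and TIMM10B, all listed higher. With 1 free base (GCNTGCGC), which includes the exact core, it was in 13 (31.7%; 18.18% and 11.98%), of which 11 were listed higher and 2, MRPL45 and TOMM20, lower. The YY1 motif AAGATGGCG was in 5 windows (12.2%; 3.09% and 1.75%), those of ATP5J, MRPL46, MRPL50, MRPS10 and TOMM40L. The E-box CACGTG was in 6 (14.6%; 9.05% and 7.26%) and the TATA motif TATAAA in 2 (4.9%; 6.47% and 11.53%). Motifs can overlap each other in a window. Members count 1 window per gene. The other shares count every window, 5890 for listed genes and 35116 in all, so a gene can enter them more than once. These shares describe letters in a window and carry no test, and a match is not a bound site. No promoter entry was matched for ATP5B, ATP5J2, MRPL10, MRPL35, MRPS31P5, NDUFAF6 and TOMM5.

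Levels below are the deposited per-library values, expression divided by gene length and scaled within a library, given for replicates 1, 2 and 3 in that order. Whether they are TPM or FPKM is not stated, and read depth is unknown. Control replicate 1 lay apart: weights fitted to the authors' own group means were 1.17 to 1.19 for it in the 3 tables and 0.91 to 0.94 for the other control libraries, so its deposited values lie low beside the scale of the authors' test. The lactic acidosis libraries also had weights below 1, 0.90 to 0.95, while those of lactosis were 0.92 to 1.04 and those of acidosis 0.91 to 1.07. Per gene, the log2 difference of deposited values exceeded the authors' by a median of 0.10 under lactic acidosis, 0.02 in lactosis and 0.00 in acidosis. These medians cover listed genes with an authors' control mean of at least 100. Member results whose call changes with the scale are given on the deposited values and on values rescaled by these weights. Muscle genes formed another such library effect: the 7 listed muscle markers summed to 56.0 in lactosis replicate 2, to 0.49 and 0.53 in the other lactosis libraries and to at most 1.5 in control. In lactic acidosis the 9 listed ones summed to 55.5 in replicate 2 and to 18.7 and 17.0 in the others, with 38.4 to 57.8 in control. That sum joined markers listed in opposite directions. The 6 listed higher, CKM, MYH1, MYH2, ACTC1, ACTA1 and MYL3, were each highest in replicate 2. ACTA1 read 0.58, 0.35 and 1.03 in control and 0.43, 19.65 and 0.56 in lactic acidosis. The 3 listed lower, MB, TNNT3 and TNNI2, stood below all controls in every lactic acidosis library. TNNI2 read 26.23, 35.37 and 40.98 in control and 12.96, 14.87 and 12.37 in lactic acidosis. In acidosis 0 of the 22 markers was listed. Of 11 bile duct epithelium markers, 5 were listed under lactic acidosis, 2 in lactosis and 1 in acidosis, at very different levels: KRT19 read 2799 to 4419 in control libraries, CDH1 68.5 to 89.1, SOX9 6.41 to 17.3, SPP1 2.95 to 4.97 and MUC1 1.41 to 2.3. In lactic acidosis SOX9 and CDH1 were listed higher and KRT19, SPP1 and MUC1 lower. The other markers of that list were not analysed here.

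Every member moved the same way in each table that listed it, 36 higher and 12 lower than control. This was general, since only 34 of all 5308 listed genes were listed in opposite directions. Of the members, 24 were in a single table and could not disagree, and all tables shared the same controls. By the authors' deposited tables, 21 of 31 members (67.7%) were higher in lactic acidosis, beside 58.9% of all listed genes. In lactosis 32 of 38 (84.2%) were higher, beside 59.3%, and in acidosis 16 of 16, beside 61.1%. The median log2 fold change of members in these deposited tables was 0.36 in lactic acidosis (0.37 over all listed genes), 0.53 in lactosis (0.35) and 0.52 in acidosis (0.32). The lactic acidosis share and median thus lay near those of all listed genes.

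With limma on the deposited values, 20 members rose and 5 fell of 31 in lactic acidosis, where 86.1% of all listed genes passed, 55.3% higher and 30.8% lower. In lactosis 31 rose and 2 fell of 38, where 77.7% of all passed, 46.5% higher and 31.2% lower. In acidosis 13 rose and 0 fell of 16, where 60.0% of all passed, 35.9% higher and 24.2% lower, and 0 members were lower at an unadjusted limma p under 0.05. On rescaled values the limma counts were 21 higher and 9 lower in lactic acidosis (97.4% of all listed genes passed), 32 and 5 in lactosis (97.1%), and 16 and 0 in acidosis (97.2%). The deposited libraries of members overlapped their controls for 5 of 31, 4 of 38 and 1 of 16, while 90.2%, 84.0% and 75.5% of all listed genes did not overlap. Leaving out 1 library moved these counts: without LLA replicate 1 limma called 15 members in lactic acidosis, and without lactosis replicate 1 it called 21 in lactosis. In acidosis 6 were called without control replicate 2 or acidosis replicate 1, and 5 without acidosis replicate 2 or 3. Without lactosis replicate 2, the lactosis library with the muscle genes, limma called 25 members higher and 0 lower in lactosis. No named member reversed direction there where either fit passed. These genes entered the tables because the authors called them on these same libraries, so the limma counts describe the list and are not separate evidence of its direction. The rescaling weights were fitted to the same group means that give the authors' fold changes. A rescaled pass against control, for any gene below, thus largely restates the listing.

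**Figure D1:**
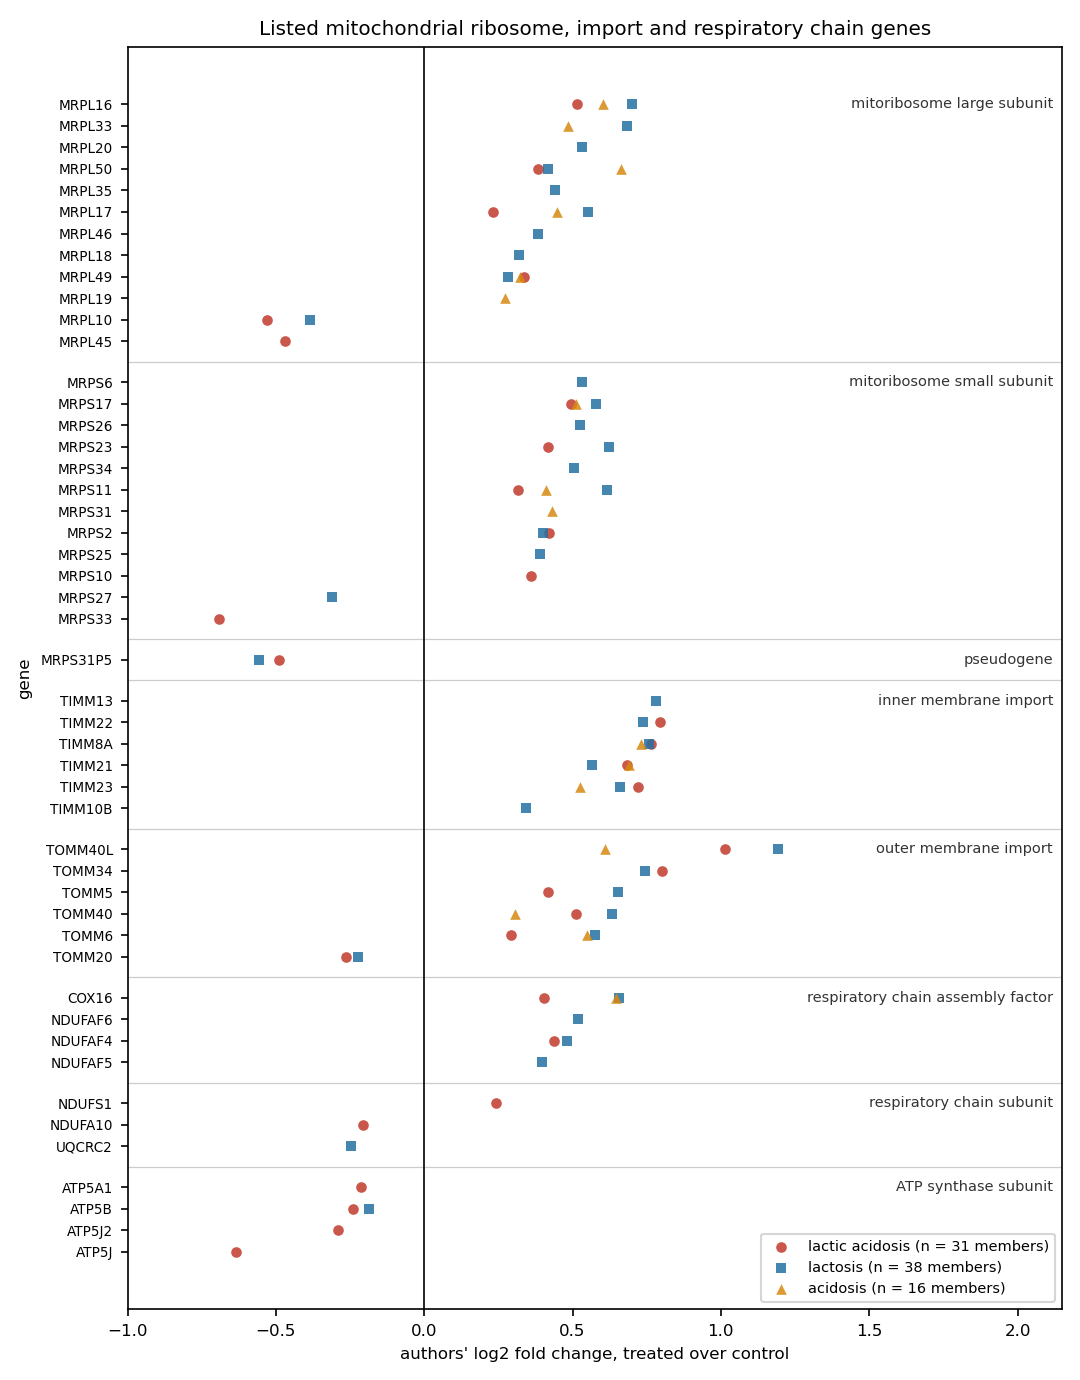
Authors' log2 fold change (horizontal axis, treated over control) of each of the 48 members in each table that listed it, grouped by role; circles are lactic acidosis, squares lactosis and triangles acidosis. All 6 inner membrane import genes and all 4 assembly factors lie to the right of 0, all 4 ATP synthase subunits lie to the left, and TOMM40L in lactosis lies farthest right at 1.19.

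Most changes were small. A change of 1.5-fold or more in the authors' deposited tables was met by 8 members under lactic acidosis, 13 in lactosis and 6 in acidosis, beside 59.5%, 53.9% and 38.9% of all listed genes. A 2-fold change was met by TOMM40L alone among members, in lactic acidosis and lactosis, beside 26.3% and 21.1% of all listed genes there and 12.6% in acidosis. Members listed lower stood at higher control levels than members listed higher: the median control level was 141 for the 12 lower members (7.73 to 1410) and 62.6 for the 36 higher ones (8.76 to 233). Over all listed genes the order was the other way, 14.4 for lower and 22.4 for higher genes.

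Genes of the TIMM class rose wherever they were listed, and 4 of 4 under lactic acidosis, 6 of 6 in lactosis and 3 of 3 in acidosis passed limma. TIMM22, the core of the translocase that inserts carrier proteins, read 24.9, 29.2 and 28.5 in control, 53.3, 53.7 and 48.0 in lactic acidosis and 47.3, 45.0 and 48.7 in lactosis. All 6 treated libraries stood above all controls, by 0.89 ± 0.13 (limma log2 difference ± SE, adjusted p = 0.000699, n = 3 per group) in lactic acidosis and 0.75 ± 0.13 (limma, adjusted p = 0.00207) in lactosis. TIMM22 was not listed in acidosis.

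TIMM23 forms the channel for proteins with a presequence. Its levels were 72.8, 88.0 and 105 in control, 165, 151 and 154 in lactic acidosis, 145, 138 and 143 in lactosis and 126, 127 and 128 in acidosis. No treated library overlapped the controls, and the acidosis libraries were lower than the other treated ones. The limma differences from control were 0.83 ± 0.16 (adjusted p = 0.00218), 0.69 ± 0.16 (adjusted p = 0.00646) and 0.53 ± 0.17 (adjusted p = 0.0209) in these 3 media. A near-identical gene, TIMM23B, shares 10.0% of its 75-base windows, so reads between the copies could have been split.

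TIMM21, which links the TOM complex to the presequence translocase, read 24.1, 34.6 and 41.1 in control, 57.5, 58.2 and 54.7 in lactic acidosis, 54.0, 46.9 and 47.7 in lactosis and 55.2, 53.8 and 50.7 in acidosis. TIMM8A and TIMM13, small chaperones that work as a pair in the intermembrane space, were both listed in lactosis. TIMM8A rose from 21.4, 21.0 and 28.7 in control to 40.5, 48.4 and 41.7 in lactic acidosis, 35.8, 45.4 and 44.7 in lactosis and 44.3, 37.3 and 37.7 in acidosis. For both TIMM21 and TIMM8A the controls lay below every treated library. TIMM13 rose in lactosis by 0.81 ± 0.13 (limma, adjusted p = 0.00129), from 35.5, 33.2 and 32.3 to 61.0, 60.8 and 57.7; 22.5% of its windows occur in transcripts of 2 other genes, 12.5% in TMPRSS9. TIMM10B, another small chaperone, was the last listed gene of the TIMM class and also rose in lactosis.

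In the outer membrane, TOMM40L had the largest fold changes of all members in lactic acidosis and lactosis; in acidosis TIMM8A, TIMM21, MRPL50 and COX16 stood above it in the authors' deposited table. It encodes a relative of TOMM40, the pore of the TOM complex, and lies at chr1:161225939-161230744 on the plus strand. TOMM40L read 7.84, 11.3 and 11.7 in control, 21.6, 22.5 and 22.1 in lactic acidosis, 25.2, 21.1 and 24.8 in lactosis and 16.5, 13.9 and 16.3 in acidosis. The acidosis libraries lay between the controls and the other treated libraries, without overlap on either side. Its limma difference from control was 1.05 ± 0.16 (adjusted p = 0.000853) in lactic acidosis, 1.15 ± 0.17 (adjusted p = 0.00111) in lactosis and 0.57 ± 0.18 (adjusted p = 0.0182) in acidosis. Of its windows, 20% occur in a transcript of NR1I3, a neighbour on the opposite strand. Strand use in counting is not given in the sources used here, and the part of that overlap in the values was not tested.

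TOMM40 itself stood at 136, 167 and 164 in control, 238, 222 and 257 in lactic acidosis, 262, 233 and 246 in lactosis and 194, 194 and 193 in acidosis. It rose in lactic acidosis by 0.62 ± 0.14 (limma, adjusted p = 0.00457) and in lactosis by 0.67 ± 0.14 (adjusted p = 0.00454), while in acidosis the limma difference was 0.32 ± 0.16 (adjusted p = 0.0848). The acidosis libraries nevertheless stood above all controls, and the rescaled acidosis difference of 0.31 passed limma (adjusted p = 0.014). TOMM34, a cytosolic co-chaperone of precursor proteins, rose from 64.5, 97.3 and 125 in control to 170, 182 and 178 in lactic acidosis and to 165, 149 and 167 in lactosis. Its control libraries differed more from each other than the treated libraries did.

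The small TOM subunits TOMM5 and TOMM6 rose as well. TOMM5 read 147, 164 and 208 in control, 257, 240.1 and 246 in lactic acidosis and 266, 287 and 273 in lactosis. TOMM6 rose in all 3 media, by 0.41 ± 0.15 (limma, adjusted p = 0.0301) in lactic acidosis, 0.60 ± 0.16 (adjusted p = 0.00952) in lactosis and 0.55 ± 0.17 (adjusted p = 0.0173) in acidosis, but 100.0% of its windows occur in transcripts of another annotated gene, so its counts are uncertain.

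TOMM20, the receptor that recognises presequences at the surface of the TOM complex, was the exception. Its levels were 267, 299.8 and 315 in control, 262, 277 and 256 in lactic acidosis and 250.4, 252 and 269 in lactosis. The lowest control library overlapped both treated groups. The limma differences of -0.15 ± 0.13 (adjusted p = 0.292) and -0.19 ± 0.13 (adjusted p = 0.197) did not pass. On rescaled values the groups separated, and TOMM20 fell by 0.26 (limma, adjusted p = 0.0201) in lactic acidosis and by 0.22 (adjusted p = 0.0408) in lactosis.

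The large mitoribosomal subunit had 10 members listed higher and 2 lower. MRPL16, a core protein of the subunit, rose from 92.2, 112 and 121 in control to 169, 163 and 167 in lactic acidosis, 177, 182 and 177 in lactosis and 152, 171 and 169.7 in acidosis. Its limma difference was 0.62 ± 0.14 (adjusted p = 0.00471), 0.73 ± 0.15 (adjusted p = 0.00353) and 0.60 ± 0.17 (adjusted p = 0.0111). MRPL17, whose upstream sequence holds the exact NRF1 core, stood at 70.3, 86.8 and 90.9 in control, 104, 103 and 107 in lactic acidosis, 127, 121 and 122 in lactosis and 105, 116 and 117 in acidosis. For both genes every treated library exceeded every control library.

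MRPL50 was the one gene of those in all 3 tables whose highest deposited mean was in acidosis, 97.8, 97.5 and 101 against 50.3, 62.4 and 74.9 in control, 84.7, 97.3 and 80.7 in lactic acidosis and 77.4, 87.1 and 89.1 in lactosis. It rose by 0.67 ± 0.17 (limma, adjusted p = 0.0088) in acidosis. MRPL33, among the smallest proteins of the subunit, rose in lactosis (186, 228 and 171) and acidosis (164, 168 and 175) from 111, 112 and 138. MRPL49 was listed higher in all 3 tables but its deposited values passed limma only in lactic acidosis (0.45 ± 0.16, adjusted p = 0.026), with 0.31 ± 0.16 (adjusted p = 0.0895) in lactosis and 0.33 ± 0.17 (adjusted p = 0.0928) in acidosis. On rescaled values MRPL49 passed limma there too, at 0.28 (adjusted p = 0.0134) and 0.32 (adjusted p = 0.00965).

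MRPL10 and MRPL45 went down. MRPL10, part of the stalk that recruits translation factors, read 90.1, 94.6 and 98.2 in control, 62.8, 76.9 and 73.1 in lactic acidosis and 75.8, 70.2 and 76.6 in lactosis. It fell by 0.41 (SE 0.13; limma, adjusted p = 0.0198) in lactic acidosis and by 0.34 (SE 0.13; limma, adjusted p = 0.0364) in lactosis, with all treated libraries below the controls. MRPL45, which faces the exit of the ribosomal tunnel at the inner membrane, fell in lactic acidosis from 159, 167 and 157 to 135, 124 and 121 (limma difference -0.35 ± 0.12, adjusted p = 0.0273). Its upstream sequence above carries the NRF1 core with 1 free base. The other large-subunit members, MRPL18, MRPL20, MRPL35 and MRPL46 in lactosis and MRPL19 in acidosis, were each listed higher in a single table, and all but MRPL19 passed limma. MRPL19 differed by 0.28 on deposited values (limma, adjusted p = 0.139) and by 0.26 on rescaled ones (adjusted p = 0.0248).

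The small subunit had the same balance, 10 higher and 2 lower. MRPS17 rose in all 3 media, from 91.6, 84.7 and 111 in control to 144, 149 and 146 in lactic acidosis, 143, 153 and 143 in lactosis and 139, 132 and 142 in acidosis. Of its windows 25.0% occur in transcripts of other annotated genes, 22.5% in AC092647.5, and both AC092647.5 and NIPSNAP2 overlap it. MRPS11 read 29.2, 32.2 and 31.9 in control, 36.4, 44.7 and 44.8 in lactic acidosis, 46.8, 56.0 and 42.8 in lactosis and 42.7, 40.7 and 41.8 in acidosis. Treated libraries stood above the controls on deposited values, but after rescaling the lowest lactic acidosis library, 33.8, lay below the highest control, 34.1.

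MRPS23 rose from 59.8, 57.2 and 61.8 in control to 90.1, 84.6 and 85.5 in lactic acidosis and 89.9, 101 and 92.4 in lactosis, by 0.53 ± 0.12 (limma, adjusted p = 0.0049) and 0.65 ± 0.13 (adjusted p = 0.00344). MRPS2 rose in the same media, by 0.53 ± 0.14 (limma, adjusted p = 0.00826) and 0.43 ± 0.14 (adjusted p = 0.0245). MRPS31 was listed only in acidosis, at 85.7, 86.0 and 81.6 against 50.9, 65.4 and 71.7 (limma difference 0.44 ± 0.17, adjusted p = 0.0391). MRPS10 in lactic acidosis and MRPS6, MRPS25, MRPS26 and MRPS34 in lactosis also rose.

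MRPS33 had the largest fall of any member. It read 102, 93.7 and 87.9 in control and 68.3, 61.5 and 62.8 in lactic acidosis, with no overlap, and fell by 0.55 (SE 0.13; limma, adjusted p = 0.00544). MRPS27, an RNA-binding protein of the subunit, stood at 58.1, 75.2 and 76.3 in control and 58.8, 54.2 and 58.8 in lactosis. Control replicate 1 overlapped the treated libraries, and the limma difference of -0.27 ± 0.15 did not pass (adjusted p = 0.112). Rescaled control values were 68.9, 69.3 and 69.8 against 57.1, 56.3 and 54.2, and on that scale MRPS27 fell by 0.31 (limma, adjusted p = 0.00696). The pseudogene MRPS31P5 fell in lactic acidosis and lactosis at low levels, 7.67 to 7.77 in control and 4.5 to 6.51 in the treated libraries, and 72.5% of its windows occur in other transcripts.

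The 4 members that are assembly factors of the respiratory complexes rose. Factors outside the symbol rule, given further below, were listed in both directions. COX16, which takes part in building complex IV, read 50.4, 49.9 and 66.7 in control, 83.9, 77.1 and 77.3 in lactic acidosis, 84.3, 94.6 and 89.3 in lactosis and 87.4, 85.5 and 89.8 in acidosis. All 9 treated libraries exceeded the controls, with limma differences of 0.52 ± 0.15 (adjusted p = 0.013), 0.68 ± 0.16 (adjusted p = 0.00587) and 0.66 ± 0.17 (adjusted p = 0.00812). A readthrough transcript, SYNJ2BP-COX16, holds 30.0% of its windows. Complex I assembly factors were also higher: NDUFAF4 rose from 23.2, 25.5 and 26.7 in control to 35.1, 37.4 and 38.3 in lactic acidosis and to 33.9, 37.5 and 36.2 in lactosis. NDUFAF5 and NDUFAF6 rose in lactosis by 0.41 ± 0.13 (limma, adjusted p = 0.0196) and 0.52 ± 0.14 (adjusted p = 0.0121).

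Structural subunits of the complexes gave smaller and less certain values. NDUFS1, the largest iron-sulfur subunit of complex I, read 49.6, 65.5 and 69.3 in control and 76.0, 84.1 and 73.9 in lactic acidosis. The groups did not overlap, yet the limma difference of 0.35 ± 0.16 missed the threshold (adjusted p = 0.0603) and passed after rescaling at 0.24 (adjusted p = 0.0293). NDUFA10, an accessory subunit of the same complex, stood at 23.5, 26.8 and 30.4 in control and 25.5, 25.0 and 24.7 in lactic acidosis, overlapping, and passed on neither scale (limma adjusted p = 0.539, rescaled 0.0584).

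UQCRC2, a core protein of complex III, read 127, 157 and 172 in control and 129, 123 and 139 in lactosis. The deposited values overlapped through control replicate 1 (limma difference -0.21 ± 0.15, adjusted p = 0.207). Rescaled values were 150.2, 145 and 157 in control and 126, 127 and 128 in lactosis, a fall of 0.24 (limma, adjusted p = 0.0192).

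The ATP synthase members were all listed lower in lactic acidosis, ATP5B also in lactosis, and none in acidosis. ATP5J, a peripheral stalk subunit, was the only one to pass limma on deposited values. It fell from 122, 128 and 139 in control to 76.4, 99.1 and 93.1 in lactic acidosis, without overlap, by 0.54 (SE 0.14; limma, adjusted p = 0.00957). Opposite-strand exons of GABPA cover 23.1% of its exon bases.

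ATP5B, the catalytic beta subunit and the most abundant member per length, read 1249, 1443 and 1539 in control, 1281, 1325 and 1258 in lactic acidosis and 1271, 1197 and 1327 in lactosis. Both treated groups overlapped control replicate 1, and limma differences were -0.13 ± 0.13 (adjusted p = 0.377) and -0.15 ± 0.14 (adjusted p = 0.306). Rescaled control values were 1460, 1358 and 1399 beside 1188, 1190 and 1194 in lactic acidosis, and there ATP5B fell by 0.24 (limma, adjusted p = 0.0245); in lactosis the rescaled difference of -0.19 missed the threshold (adjusted p = 0.0596).

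The alpha subunit gene ATP5A1 stood at 543, 605 and 645 in control and 570.0, 561 and 541 in lactic acidosis, and ATP5J2, the f subunit of the membrane part, at 273, 331 and 332 against 262, 276 and 287. Each overlapped its controls on deposited values and lay below them after rescaling, where limma gave falls of 0.21 (adjusted p = 0.0487) and 0.29 (adjusted p = 0.0145). Summed over the 4 genes, the deposited control libraries read 2186, 2507 and 2654 and the lactic acidosis libraries 2190.1, 2262 and 2178. The rescaled sums were 2556, 2359 and 2413 against 2030, 2031 and 2069. Whether these sums separate thus depends on the scale used.

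**Figure D2:**
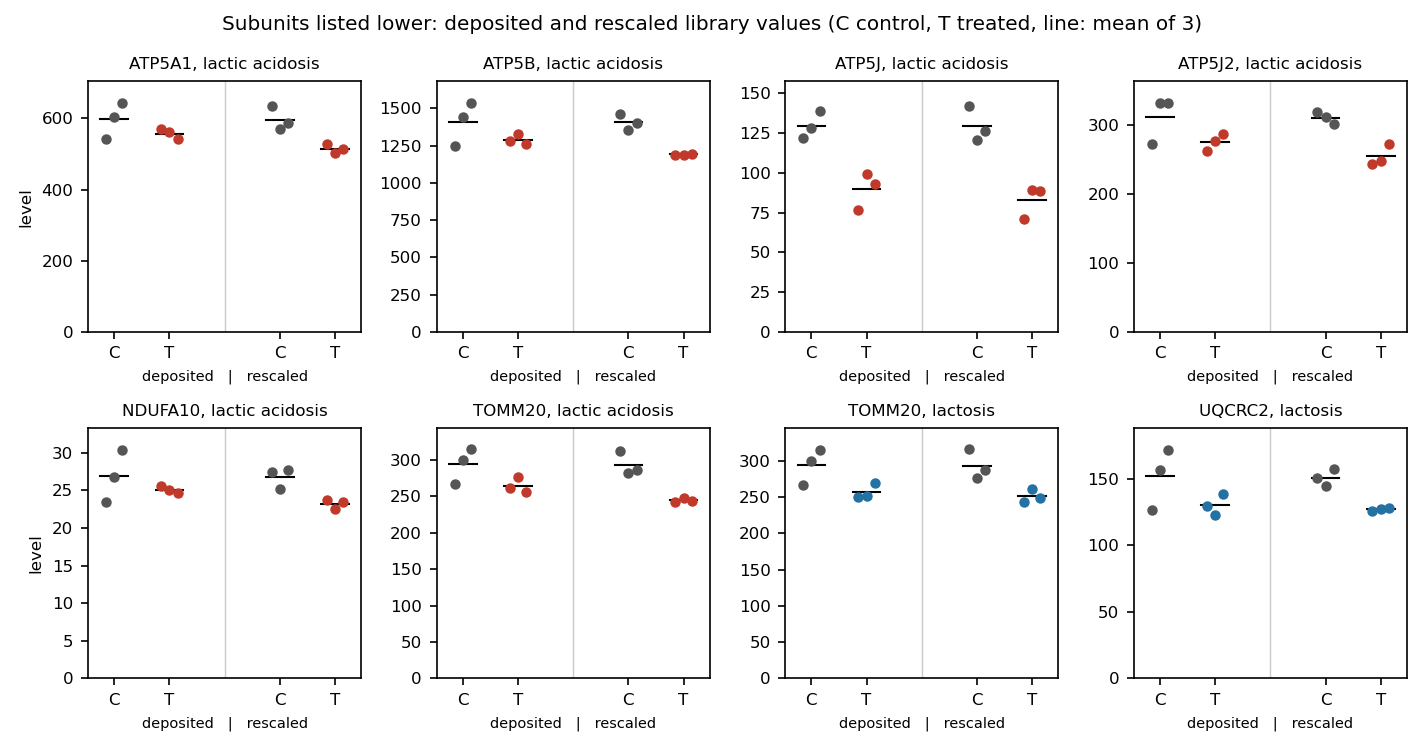
Levels of 7 members listed lower, 1 panel per gene and table (TOMM20 in 2), with each library as a point for control (C) and treated (T) cells, the line being the mean of 3, on deposited values at left and rescaled values at right. Deposited ATP5B in lactic acidosis overlaps its controls (1258 to 1325 against 1249 to 1539), while the rescaled values lie apart (1188 to 1194 against 1358 to 1460).

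Across the 4 groups, 13 members were listed in all tables and could be followed in every library: COX16, MRPL16, MRPL17, MRPL49, MRPL50, MRPS11, MRPS17, TIMM21, TIMM23, TIMM8A, TOMM40, TOMM40L and TOMM6. Control had the lowest mean for all 13, a direction set by the listing itself. On deposited values the highest mean was in lactosis for 8 genes, in lactic acidosis for 4 and in acidosis for 1. This ranking was not counted on rescaled values or over all genes listed in every table. It therefore cannot tell a property of these members from a difference between the libraries. The summed level of the 13 genes was 924, 1082 and 1236 in control, 1588, 1576 and 1597 in lactic acidosis, 1644, 1668 and 1639 in lactosis and 1503, 1549 and 1559 in acidosis. Rescaled, the sums were 1080, 1018 and 1123 in control, 1471, 1414 and 1517 in lactic acidosis, 1597, 1732 and 1512 in lactosis and 1361, 1556 and 1664 in acidosis. On either scale all treated libraries lay above all controls, and on the rescaled one the treated groups overlapped each other.

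**Figure D3:**
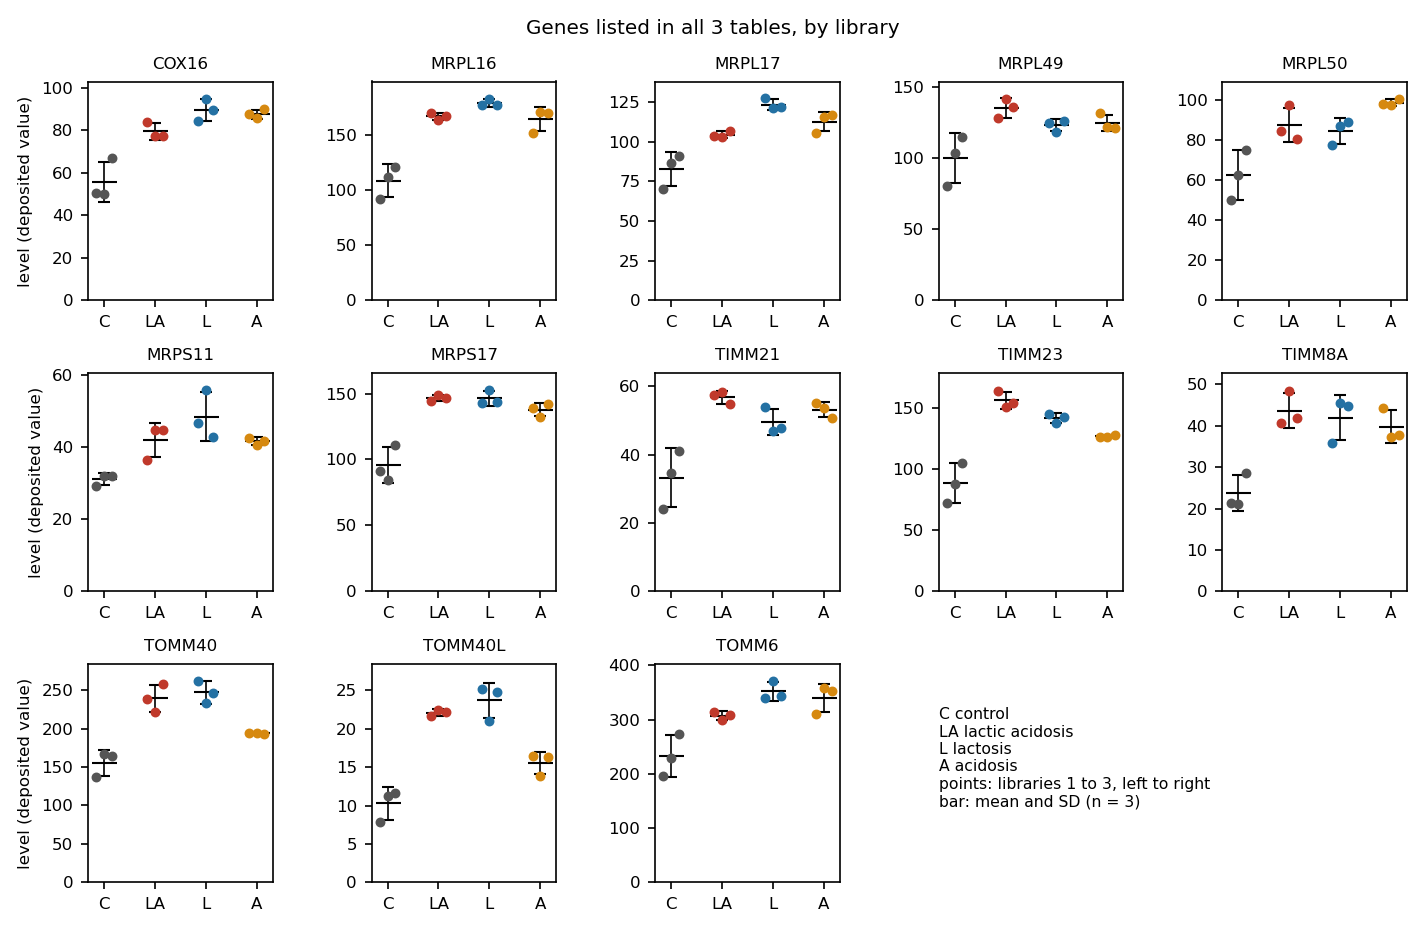
Deposited level (vertical axis, from 0) of the 13 genes listed in all 3 tables in each library of control, lactic acidosis, lactosis and acidosis cells, with the mean and SD of 3 libraries. TOMM40L in acidosis (13.9 to 16.5) lies between control (7.84 to 11.7) and the other treated groups (21.1 to 25.2).

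Treated groups were then compared with each other by limma over the genes that both tables listed. Between lactic acidosis and lactosis, 1 of 23 members passed, beside 20.4% of all 2344 genes (15.7% higher and 4.78% lower): MRPL17 was lower in lactic acidosis by a log2 difference of -0.24 ± 0.08 (limma, adjusted p = 0.048). None was higher (1 at an unadjusted p under 0.05, TIMM21). Rescaled values, where 23.3% of genes passed, added TOMM6 at -0.27 (limma, adjusted p = 0.0442), and leaving out any library but lactosis replicate 2 took the MRPL17 call away.

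Between lactic acidosis and acidosis, 3 of 13 members passed, all higher in lactic acidosis, beside 48.8% of 1304 genes (38.7% higher and 10.0% lower). TOMM40L differed by 0.48 ± 0.08 (limma, adjusted p = 0.00132), TOMM40 by 0.30 ± 0.08 (adjusted p = 0.0102) and TIMM23 by 0.30 ± 0.07 (adjusted p = 0.00657). After rescaling, where 46.6% of genes passed, TOMM40L kept its call at 0.39 (limma, adjusted p = 0.00147), TOMM40 and TIMM23 did not (adjusted p = 0.0791 and 0.0655), and COX16 and MRPL50 were lower in lactic acidosis, at -0.24 (adjusted p = 0.0312) and -0.27 (adjusted p = 0.0169). These media also differed in pH.

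Between lactosis and acidosis, 2 of 14 members passed, beside 23.9% of 1173 genes (16.4% higher and 7.5% lower). TOMM40L was higher in lactosis by 0.58 ± 0.10 (limma, adjusted p = 0.00535) and TOMM40 by 0.35 ± 0.07 (adjusted p = 0.0105), and both passed on rescaled values, where 31.7% of genes did, at 0.56 (adjusted p = 0.00134) and 0.33 (adjusted p = 0.0124). For the other members the limma 95% intervals included 0, except TIMM23 (0.01 to 0.30) and MRPL50 (-0.40 to -0.05), whose adjusted p values were 0.12 and 0.0709. Most members were thus not separated between lactosis and acidosis at this number of libraries, and the intervals allow log2 differences of up to 0.45 in size for them, as in MRPL33.

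**Figure D4:**
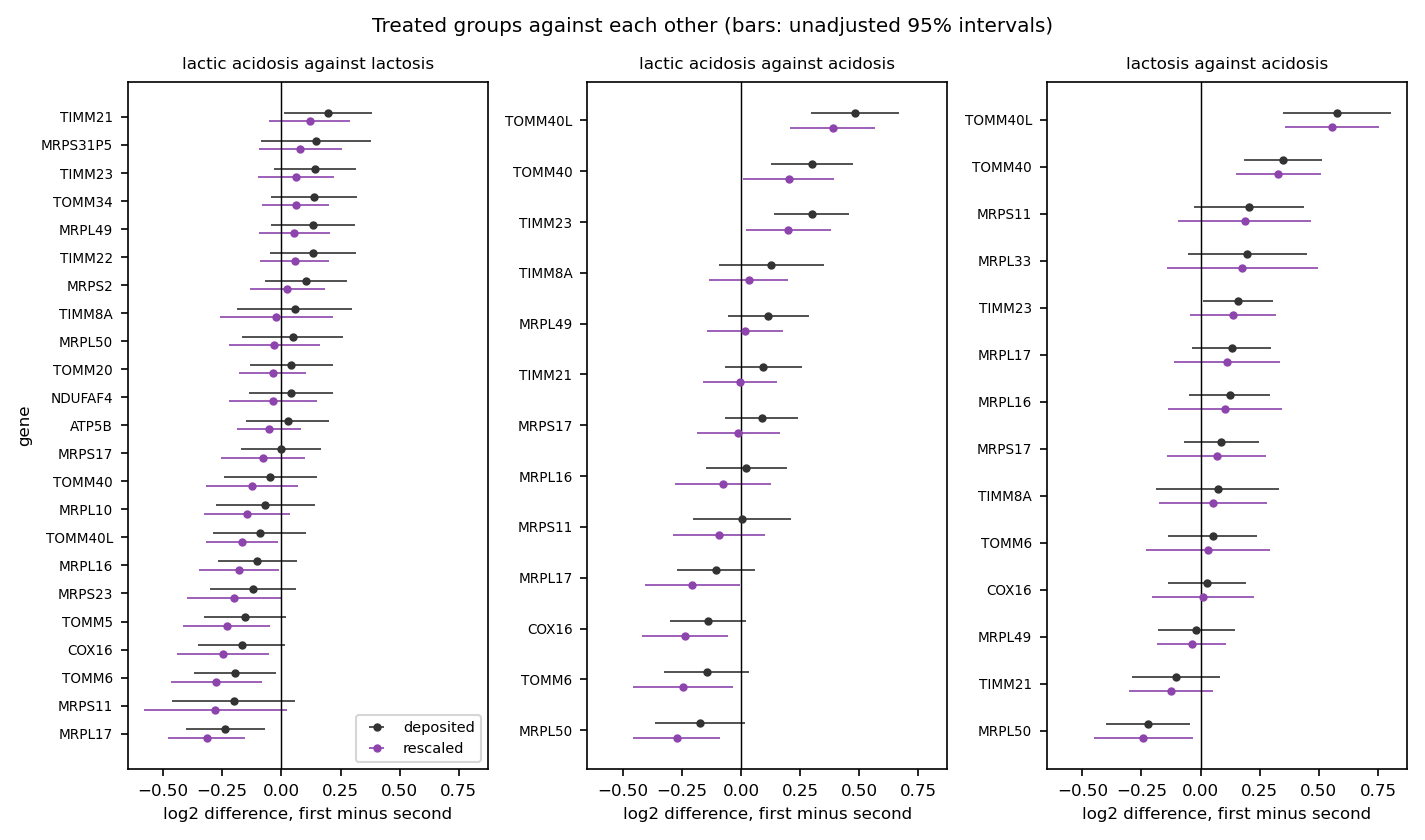
Log2 difference between treated groups (horizontal axis, first group minus second) with unadjusted 95% limma intervals for each member listed in both tables, on deposited (black) and rescaled (purple) values. TOMM40L stands highest in both comparisons with acidosis, at 0.48 and 0.58, and TOMM40 lies to the right of 0 in each.

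Genes that work beside these members gave mixed counts, which are on deposited values unless stated. Against them stand the 20.5%, 14.9% and 8.31% of all protein-coding genes that were listed in lactic acidosis, lactosis and acidosis, and the 86.1%, 77.7% and 60.0% of listed genes that passed limma. Over the 10 such lists of 179 genes in all, 27.4%, 24.6% and 14% were listed, and of the listed ones 79.6%, 72.7% and 40% passed limma, or 95.9%, 97.7% and 96.0% on rescaled values. Of 24 genes for maintenance and transcription of mitochondrial DNA, 8 were listed higher and 1 lower in lactic acidosis, 9 and 0 in lactosis and 8 and 1 in acidosis, of which 8 and 1, 7 and 0, and 5 and 0 passed limma. TRMT10C, a subunit of the mitochondrial RNase P, rose from 77.3, 83.7 and 115 in control to 149.99, 164 and 153 in lactosis and 159, 152 and 156 in acidosis, and POLG, the catalytic subunit of the mitochondrial DNA polymerase, from 8.23, 11.9 and 13.6 to 21.2, 21.0 and 20.2 in lactic acidosis. Of 28 genes for ribosome assembly and translation in mitochondria, 6 were listed higher and 3 lower in lactic acidosis, 7 and 3 in lactosis and 3 and 1 in acidosis (6 and 2, 4 and 2, and 0 and 0 past limma). LETM1 rose by 0.82 (limma, adjusted p = 0.00443) in lactic acidosis and 0.81 (adjusted p = 0.00894) in lactosis, and the GTPase NOA1 fell by 0.62 (adjusted p = 0.00355) and 0.60 (adjusted p = 0.00593). OXA1L, the insertase of the inner membrane, was the only one of 7 mitoribosome-linked genes under other names to be listed, lower in lactic acidosis and lactosis. Its deposited differences of -0.23 (limma, adjusted p = 0.161) and -0.28 (adjusted p = 0.0884) did not pass, and the rescaled ones of -0.34 (adjusted p = 0.0116) and -0.31 (adjusted p = 0.00795) did.

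Of 26 import and sorting genes outside the rule, 2 were listed higher and 2 lower in lactic acidosis, 2 and 3 in lactosis and 2 and 1 in acidosis (2 and 0, 2 and 1, and 1 and 1 past limma). The paired co-chaperones of the import motor were listed in opposite directions in all 3 media. In lactosis GRPEL1 rose from 73.2, 84.7 and 93.0 to 132, 133 and 142, and GRPEL2 fell from 28.3, 42.8 and 41.7 to 25.3, 23.0 and 27.9. The authors' log2 fold changes of GRPEL1 and GRPEL2 were 0.67 and -0.35 in lactic acidosis and 0.30 and -0.67 in acidosis. GRPEL2 in lactic acidosis (limma, adjusted p = 0.243) and GRPEL1 in acidosis (limma, adjusted p = 0.092) did not pass. Of 33 assembly factors outside the rule, 5 were listed higher and 2 lower in lactic acidosis, 5 and 1 in lactosis and 2 and 1 in acidosis (5 and 1, 3 and 0, and 1 and 0 past limma). COA7, for complex IV, rose from 32.5, 47.9 and 54.5 to 91.0, 93.5 and 87.3 in lactic acidosis, and HIGD2A fell from 279, 262 and 227 to 132, 136 and 148. Of 11 genes for complex II and the cytochromes c and c1, 1 was listed higher and 1 lower in lactic acidosis, 2 and 1 in lactosis and 2 and 0 in acidosis, and of 13 proteases and chaperones 2 and 1, 2 and 0, and 2 and 0. SDHAF4, the lower gene of the complex II list, had limma differences of -0.58 (adjusted p = 0.00733) in lactic acidosis and -0.83 (adjusted p = 0.00195) in lactosis. HSPE1, the co-chaperonin of the matrix, rose from 241, 291 and 384 in control to 413, 444 and 435 in lactic acidosis, 495, 533 and 446 in lactosis and 494, 582 and 578 in acidosis.

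Among 10 nuclear regulators of mitochondrial genes, 5 were listed higher and 1 lower in lactic acidosis, 4 and 1 in lactosis and 1 and 1 in acidosis, and all but GABPB1 in acidosis passed limma (adjusted p = 0.0519, rescaled 0.00737). PPARGC1A, a coactivator known for raising mitochondrial gene expression, was the one lower gene in each: it read 2.79, 4.55 and 3.03 in control, 0.43, 0.53 and 0.34 in lactic acidosis, 0.25, 0.15 and 0.23 in lactosis and 0.74, 0.64 and 0.49 in acidosis. The groups did not overlap, and in the authors' deposited tables its log2 fold change was -3.10, -4.09 and -2.48. PPRC1, a related coactivator, rose in lactic acidosis from 16.4, 33.8 and 35.1 to 54.9, 60.1 and 59.4. GABPB1, a subunit of the ETS-family factor GABP, rose from 21.1, 24.6 and 25.5 to 46.2, 48.3 and 43.1 in lactic acidosis and to 32.8, 32.3 and 33.6 in lactosis. NRF1 itself was listed higher in lactic acidosis (10.3, 13.2 and 10.99) and lactosis (10.4, 11.8 and 12.04) against 6.14, 7.9 and 8.26 in control. None of these values says whether the regulators act on the members.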

How the data were processed

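Polyadenylated RNA was sequenced as single-end reads of 75 nt, per the labels' protocols, with STAR and hg38 named in the submitters' processing notes; the counting tool is not given in the sources used here. The authors deposited 3 tables, 1 per treatment, whose columns per the file headers are those of EBSeq. The deposited per-library values are a signal, length-scaled expression whose name is not stated, and the deposited group means are a signal of size-factor-scaled counts. The fold-change column the authors deposited is a ratio, control divided by treated, inverted here. The other deposited columns are posterior probabilities, and that of equal expression was at most 0.05 for each listed gene.

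Here limma 3.58.1 (R 4.3.3) was run on log2(value + 1), without a filter, over the whole table for the 6 libraries of each comparison, with Benjamini-Hochberg adjusted p under 0.05; treated groups were compared over genes in both tables. limma was checked on simulated data with independent noise per gene. The simulation held no shift of a whole library and no earlier calling of the genes, so it does not cover these features of the data. Rescaled values are deposited values times library weights fitted to the authors' group means of at least 100. Tables and figures were made with pandas 2.3.3 and numpy 2.4.6 in Python 3.11.15, with scipy 1.17.1 for the weights and matplotlib 3.10.9 for plots. Positions are from GENCODE release 29 (GRCh38), where 48 of 48 members matched, old symbols through RefSeq synonyms. Shared sequence is how many percent of a gene's 40 windows, each 75 bases, are found in transcripts of another gene. The NRF1 and YY1 letters were shortened after longer forms had been searched, and no motif share was tested.

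Members and lists were chosen with earlier results of these data known. Named members were the 3 largest rises and falls per class and table with a group mean of at least 10, those in all tables and those at or past 2-fold, and from each list the largest changes, which took 36 of 48 members. ATP5A1, MRPL18, MRPL19, MRPL20, MRPL35, MRPL46, MRPS6, MRPS10, MRPS25, MRPS26, MRPS34 and TIMM10B, and from the lists NRF1, PPRC1, GRPEL2, POLG and the bile duct, hepatocyte and immune markers where outside that rule, were named after their values were seen. Alternatives were pseudocounts of 0.1 and 5, a mean of at least 1, stricter listing, a replicate block, rescaling and leaving out each library; rescaling together with leaving out control replicate 1 was added after the data were seen.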

Additional observations from a re-analysis of the deposited data

Results flagged for a closer look

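A difference between 2 treated groups, fitted without the control libraries, was found by limma for 4 members, in 6 results over 3 comparisons. MRPL17 differed by a log2 value of -0.2379 between lactic acidosis and lactosis (limma, adjusted p = 0.048), with every lactic acidosis library below every lactosis library. TIMM23 was higher in lactic acidosis than in acidosis by 0.2981 (limma, adjusted p = 0.00657), in 3 of 3 libraries, and its call was lost on rescaled values. TOMM40 was higher in lactic acidosis than in acidosis by 0.3007 (limma, adjusted p = 0.0102), a call also lost on rescaled values, and higher in lactosis than in acidosis by 0.3478 (adjusted p = 0.0105). TOMM40L was higher than in acidosis by 0.4827 in lactic acidosis (limma, adjusted p = 0.00132) and by 0.5754 in lactosis (adjusted p = 0.00535), again without overlap between libraries, and kept both calls on rescaled values. No other member passed on deposited values. The 20% of TOMM40L windows shared with the opposite-strand gene NR1I3 was not followed across the media.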

How the results depend on the processing

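Among 123 results for named members under 1426 alternative values, 1281 values kept their side of the threshold, 109 lost it and 36 gained it. No direction reversed where the main or the alternative value passed. Sign changes where neither passed were counted as kept, as for ATP5B between lactic acidosis and lactosis (0.03 deposited, -0.05 rescaled). In acidosis 13 members passed limma, and 7 with the replicate block. In no comparison did all 3 same-numbered pairs correlate above 0.1. With 3 libraries per group this cannot tell whether the shared numbers pair the libraries, and the labels do not say. The block left 22 members in lactic acidosis and 25 in lactosis. Between lactic acidosis and lactosis the count of 1 became 0 with a pseudocount of 0.1, 2 with a pseudocount of 5, 0 with the replicate block and 2 when rescaled. Asking for a 1.5-fold change lowered the listed members from 31 to 8 in lactic acidosis, 38 to 13 in lactosis and 16 to 6 in acidosis. Leaving out each library in turn gave 15 to 27 members in lactic acidosis (15 without LLA replicate 1), 21 to 36 in lactosis (21 without lactosis replicate 1) and 5 to 15 in acidosis (6 without control replicate 2 or acidosis replicate 1, 5 without acidosis replicate 2 or 3). Between treatments the ranges were 0 to 1 for lactic acidosis against lactosis, 3 to 4 for lactic acidosis against acidosis and 1 to 2 for lactosis against acidosis (1 without acidosis replicate 2 or lactosis replicate 1). The summed level of the 13 genes in all tables was higher than control by 0.55 (0.45 to 0.66) in lactic acidosis, 0.61 (0.51 to 0.72) in lactosis and 0.51 (0.41 to 0.62) in acidosis, as log2. The cause of the other moves was not tested, except that leaving out a library leaves fewer samples. Depth is unknown, so no counting error could be set.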

Other observations

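Of 14 genes for the shape and turnover of mitochondria, 5 were listed higher and 3 lower in lactic acidosis (57.1%, where 20.5% of all protein-coding genes were listed), 1 and 2 in lactosis (21.4%, beside 14.9%) and none in acidosis (beside 8.31%). The difference between these counts was not tested. BNIP3, a receptor for mitophagy, rose in lactic acidosis from 0.39, 1.21 and 1.17 to 5.97, 7.24 and 6.26 (limma difference 1.99). Its relative BNIP3L read 38.5, 57.6 and 64.2 in control, 38.5, 42.9 and 36.7 in lactic acidosis and 33.2, 29.6 and 32.7 in lactosis. The lactosis libraries lay below all controls, and BNIP3L fell there by 0.70 on the limma scale. In lactic acidosis its difference of -0.40 (limma, adjusted p = 0.0724) passed on rescaled values, at -0.51 (adjusted p = 0.00338). MIEF1, which recruits the fission machinery, rose in lactic acidosis from 18.1, 22.5 and 21.7 to 34.9, 33.7 and 36.3. Whether these genes differ between the media was tested only where both tables list them, and no such value is given here.

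Of 8 hepatocyte markers 1, SERPINA1, and of 10 fibroblast and immune markers 1, CD68, were listed higher in lactic acidosis, and none of these lists in the other media.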
